A study of Homo sapiens with 6 samples.

Results

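The genes examined here are 36 genes of the integrated stress response, the unfolded protein response and serine-folate metabolism, chosen by symbol from a list of pathway members. The choice was made with earlier results of these data known, so shares over the list are descriptive. All 36 were found, each in 1 row, among the 34036 genes of the count table. They comprise 19 genes of the ATF4 arm, 9 serine-folate enzymes and 8 genes of the arm of the endoplasmic reticulum (ER). All 36 also passed the filter on low counts, which left 14476 genes to test. CHAC1 passed it through the 3 siDGk libraries alone, so a test of it could only find a higher level in siDGk. CREB3L3 was at the filter's level in 3 siCON and 2 siDGk libraries, and FGF21 in 2 siCON libraries and 1 siDGk library.

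HepG2 is a human line derived from a hepatocellular carcinoma. Cells were transfected by RNAiMAX with a non-targeting siRNA (siCON) or with a pool of siRNAs against DGUOK (siDGk), the mitochondrial kinase that phosphorylates deoxyguanosine, and RNA was collected after 48 h for bulk sequencing. There were 3 libraries in each group, which the series describes as independent biological replicates cultured and processed in parallel. Groups come from the sample titles, because the field for treatment gives the control siRNA throughout. Both groups thus shared the line, the transfection reagent and the time of harvest, and the knockdown was a transient one by several siRNAs used together.

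Library totals on genes were 19065684, 18915508 and 10527216 counts in siCON replicates 1, 2 and 3 and 18613138, 15978314 and 21334876 counts in siDGk replicates 1, 2 and 3. Values of a group are given below in the order of replicates 1, 2 and 3. DGUOK itself, which checks the labels, had 1019, 997 and 506 counts in siCON and 168, 171 and 146 counts in siDGk. Every siDGk library was below every siCON library, at 8.77 ± 1.92 against 51.9 ± 3.26 CPM (mean ± SD over 3 libraries), a fall in 3 of 3 siDGk libraries (log2 fold change −2.57 ± 0.19 SE, edgeR quasi-likelihood test, Benjamini-Hochberg adjusted p = 1.64e-08). CPM here are counts scaled to library totals adjusted by the trimmed mean of M-values (TMM).

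The integrated stress response starts when a kinase phosphorylates the initiation factor eIF2, which lowers general translation and favours translation of the mRNA of ATF4. ATF4 is a transcription factor that switches on genes of amino acid supply, redox balance and, in mitochondrial stress, the serine and folate enzymes that feed carbon units to purine synthesis. The ER senses unfolded protein through the kinase PERK (EIF2AK3), which joins the same pathway, through the endonuclease IRE1 (ERN1), which splices XBP1 mRNA, and through the membrane-bound factor ATF6, which is released by cleavage. Much of this control acts on translation, splicing and cleavage, which counts of reads per gene do not measure.

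A gene was called where the adjusted p of edgeR's quasi-likelihood test was under 0.05 and the absolute log2 fold change above 0.5, and only called genes are said to have risen or fallen. Of the 36 genes, 5 were called (13.9%), next to 14.1% of all genes tested, so the share was near the background. CHAC1, DDIT4, MTHFD1L and ERN1 were called higher, 4 of 36 against 7.42% of all genes, and CREB3L3 was called lower, 1 of 36 against 6.68%. Without CHAC1, whose direction the filter set, 3 of 35 were called higher and 4 of 35 called in all (11.4%). By the adjusted p alone 14 of 36 passed (38.9%), next to 19.7% of all genes. Of these, 9 were higher, against 10.3% of all genes, and 5 lower, against 9.35%. Leaving out CHAC1, 13 of 35 passed (37.1%), 8 of them higher. The libraries of the 2 groups did not overlap for 22 of 36 genes (61.1%), next to 36% of all genes, with 13 higher in siDGk against 18.7% and 9 lower against 17.3% (21 of 35 and 12 higher without CHAC1). These shares were not compared with those of genes at like levels, and the power to pass grows with counts. The median log2 fold change of the 36 was 0.01, as against 0.02 over all genes tested. It was 0.13 in the ATF4 arm, 0.08 for the serine-folate enzymes and −0.15 in the ER arm, so that the arms lay on different sides of it. CHAC1 set at its lower bound was still the highest value, so these medians could not change with it. Without CHAC1 the median of the ATF4 arm was 0.08.

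Among the 5 called genes, DDIT4, MTHFD1L and CREB3L3 were called in each of the 6 fits that left out 1 library. CHAC1 and ERN1 kept the call only without siDGk replicate 2, so that 3 of the 5 were shared in the other 5 fits. DESeq2 called 3 of the 36, all among these 5, next to 2151 of the 24670 genes with a count. The filter on low counts was not applied to that set, so its share is not comparable with that of edgeR.

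**Figure D1:**
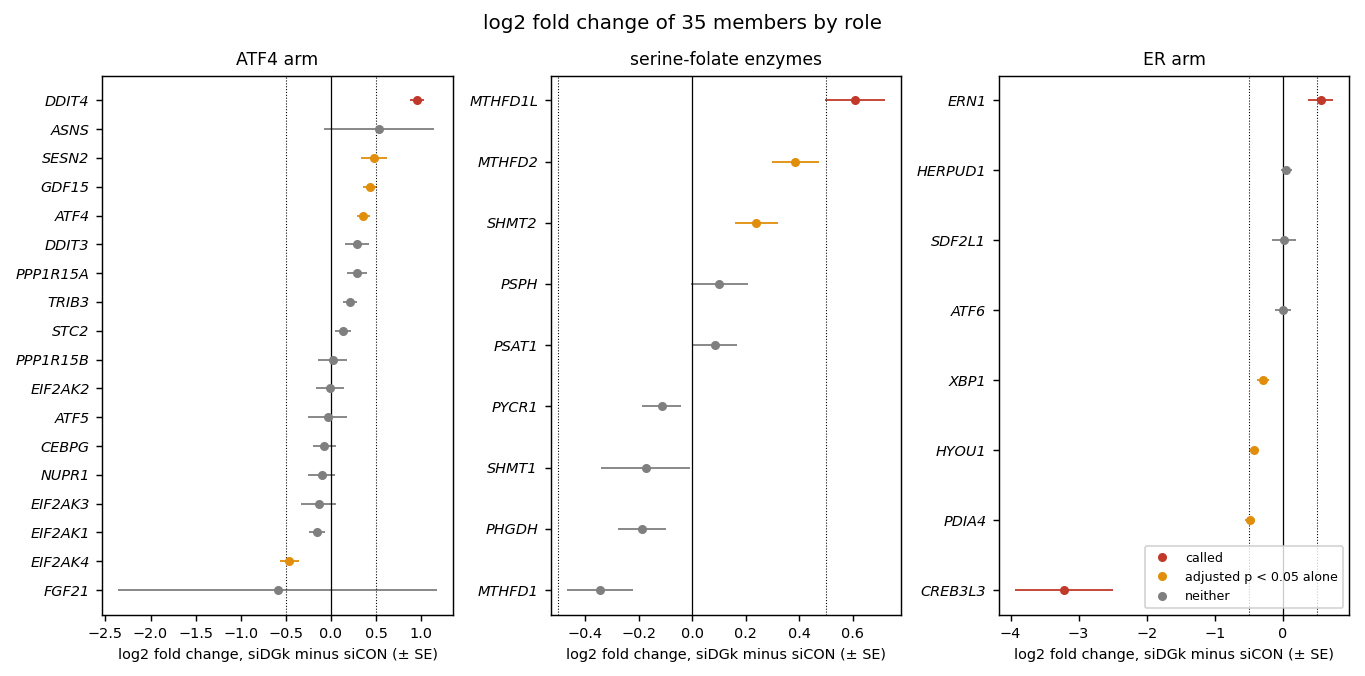
The plots show the log2 fold change (siDGk minus siCON, horizontal axis, scaled separately in each plot) of 35 members by role, with the SE as bars, dotted lines at 0.5 in each direction and colours for genes called, past the adjusted p alone or neither. CHAC1 is left out since it was at 0 in siCON. DDIT4 stands at 0.95, MTHFD1L at 0.61 and CREB3L3 at −3.21, while most other genes lie within 0.5 of no change.

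Among the 4 eIF2 kinases, only EIF2AK4 passed the adjusted p, and its level was lower. EIF2AK4 (GCN2), which senses uncharged tRNA, had 115, 115 and 103 CPM in siCON and 83.8, 76.7 and 81.2 CPM in siDGk. Every siDGk library was below every siCON library, and the difference passed the adjusted p but not the fold threshold (log2 fold change −0.46 ± 0.10 SE, edgeR quasi-likelihood test, Benjamini-Hochberg adjusted p = 0.00282). Without siCON replicate 3 or siDGk replicate 1 it was past both, at −0.51 and −0.51. EIF2AK1 (HRI), which senses heme and relays mitochondrial stress, had 178, 191 and 176 CPM in siCON and 173, 151 and 165 CPM in siDGk. Its siDGk libraries also lay below the siCON libraries, but the difference did not pass the test (log2 fold change −0.16 ± 0.09 SE, edgeR quasi-likelihood test, Benjamini-Hochberg adjusted p = 0.239). EIF2AK2 (PKR), which binds double-stranded RNA, had 35.4, 32.2 and 33.5 CPM in siCON and 38.1, 31.9 and 30.6 CPM in siDGk. EIF2AK3 (PERK), which senses unfolded protein in the ER, had 22.5, 32.9 and 30.4 CPM in siCON and 23.2, 30.8 and 24.1 CPM in siDGk. The groups overlapped for both EIF2AK2 (log2 fold change −0.01 ± 0.16 SE, edgeR quasi-likelihood test, Benjamini-Hochberg adjusted p = 0.985) and EIF2AK3 (−0.14 ± 0.19 SE, adjusted p = 0.702 in the same edgeR test with Benjamini-Hochberg adjustment). EIF2AK1 was the most abundant of the kinases per exon length, at 33.0 CPM per kb in siCON, followed by EIF2AK4 at 9.24, EIF2AK2 at 3.05 and EIF2AK3 at 1.38 CPM per kb.

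PPP1R15A (GADD34) and PPP1R15B (CReP) direct the phosphatase that removes the phosphate from eIF2, PPP1R15A as an ATF4 pathway product and PPP1R15B constitutively. PPP1R15A had 67.2, 82.6 and 79.9 CPM in siCON and 93.6, 92.3 and 94.5 CPM in siDGk, so that the groups did not overlap, yet the difference missed the threshold (log2 fold change 0.29 ± 0.11 SE, edgeR quasi-likelihood test, Benjamini-Hochberg adjusted p = 0.0742). PPP1R15B overlapped between groups, between 29.1 and 40.3 CPM over the 6 libraries.

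ATF4 mRNA was higher in every siDGk library, though below the fold threshold. ATF4, the central factor, had 8250, 9064 and 5050 counts in siCON and 10711, 10132 and 12978 counts in siDGk, or 441, 483 and 481 CPM in siCON and 579, 624 and 597 CPM in siDGk. The lowest siDGk library was above the highest siCON library, and the mean level, 28.1% higher in siDGk, passed the adjusted p alone (log2 fold change 0.36 ± 0.07 SE, edgeR quasi-likelihood test, Benjamini-Hochberg adjusted p = 0.00154). The adjusted p was 0.00345 to 0.0129 over the 6 fits that each left out 1 library, by edgeR with the same adjustment. DDIT3 (CHOP), a factor induced by ATF4 that is linked to cell death, had 41.0, 41.9 and 42.1 CPM in siCON and 52.0, 50.04 and 50.7 CPM in siDGk. TRIB3, a pseudokinase that binds ATF4 and damps it, had 339, 387 and 388 CPM in siCON and 443, 404 and 442 CPM in siDGk. Both were higher in 3 of 3 siDGk libraries without overlap, but neither passed the test (DDIT3: log2 fold change 0.29 ± 0.13 SE, edgeR quasi-likelihood test, Benjamini-Hochberg adjusted p = 0.132; TRIB3: 0.21 ± 0.08 SE, adjusted p = 0.0725 in that test). Of DDIT3's exon bases, 39.6% overlap other genes, MARS1 and MBD6 among them, and reads that overlap several genes were not counted, so its level is uncertain.

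The libraries of the other 3 factors overlapped between groups. ATF5, a relative of ATF4 linked to the mitochondrial stress response, ran from 16.5 to 28.2 CPM, both in siCON libraries. CEBPG, a dimer partner of ATF4, ran from 66.2 to 94.8 CPM, again both in siCON. NUPR1, a small stress-induced chromatin protein, lay between 29.6 and 38.5 CPM. Their log2 fold changes were −0.04, −0.07 and −0.10 for ATF5, CEBPG and NUPR1. Counts of ATF5 and NUPR1 are uncertain, as 22.1% and 16.5% of their exon bases overlap other genes. Per exon length, ATF4 at 179 and TRIB3 at 113 CPM per kb in siCON were far above DDIT3 at 31.9 and ATF5 at 7.64 CPM per kb.

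The effectors of the arm held its called genes. DDIT4 (REDD1), which restrains the growth kinase complex mTORC1, had 3394, 3866 and 2073 counts in siCON and 7062, 6142 and 8104 counts in siDGk. On the normalized scale these were 181, 206 and 198 CPM in siCON and 382, 378 and 373 CPM in siDGk. The siDGk libraries lay close together at a level 1.94 times that of siCON, with no overlap, and DDIT4 rose by both criteria (log2 fold change 0.95 ± 0.08 SE, edgeR quasi-likelihood test, Benjamini-Hochberg adjusted p = 6.30e-08). It was called in each of the 6 fits that left out a library, with log2 fold changes of 0.91 to 1.00. The gene lies at chr10:72273919-72276036, plus strand (GRCh38, Gencode 44).

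CHAC1, an enzyme that degrades glutathione and a sensitive ATF4 and CHOP target, was detected in siDGk alone. It had 0, 0 and 0 counts in siCON and 15, 16 and 50 counts in siDGk. With siCON held at a floor of 3 counts over the group, CHAC1 was at least 22.9-fold higher in siDGk, on 81 counts in all, 50 of them in siDGk replicate 3. Its levels in siDGk were 0.810, 0.985 and 2.30 CPM, so this bound, which pools the 3 libraries, would be lower without replicate 3. The filter let CHAC1 in through siDGk alone, so its test says nothing of direction and the counts are the main description. The adjusted p (0.0190 by edgeR's quasi-likelihood test with Benjamini-Hochberg adjustment, 0.0234 with no filter) rested on few counts, and the call was lost when siCON replicate 1, 2 or 3 or siDGk replicate 1 or 3 was left out, at adjusted p of 0.0667, 0.0551, 0.0651, 0.0548 and 0.105. It was kept without siDGk replicate 2 (adjusted p = 0.0363 by edgeR). The level, 1.37 ± 0.815 CPM in siDGk (SD, 3 libraries), was low in all libraries. CHAC1 lies at chr15:40952962-40956512, plus strand (GRCh38, Gencode 44).

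GDF15, a secreted stress hormone, was the most abundant of the 36 per exon length, at 413 CPM per kb in siCON and 557 in siDGk. It had 762, 953 and 871 CPM in siCON and 1147, 1158 and 1179 CPM in siDGk. The siDGk libraries were tightly grouped above the siCON libraries, and the difference passed the adjusted p but not the fold threshold (log2 fold change 0.43 ± 0.08 SE, edgeR quasi-likelihood test, Benjamini-Hochberg adjusted p = 0.000582). Without siCON replicate 2 the log2 fold change was 0.51, past that threshold too. SESN2, a leucine-binding inhibitor of mTORC1, had 48.0, 37.1 and 53.8 CPM in siCON and 57.2, 70.4 and 65.2 CPM in siDGk. Its groups did not overlap either, and it passed the adjusted p alone (log2 fold change 0.48 ± 0.15 SE, edgeR quasi-likelihood test, Benjamini-Hochberg adjusted p = 0.0258). That p was 0.0534 without siCON replicate 1, 0.118 without siCON replicate 2, 0.101 without siDGk replicate 2 and 0.0653 without siDGk replicate 3, by edgeR with the same adjustment. Without siCON replicate 3 or siDGk replicate 1 it was called, at 0.59 and 0.54.

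STC2, a secreted glycoprotein, ASNS, the asparagine synthetase, and FGF21, a metabolic hormone of liver, did not pass the test. STC2 ran from 251 to 329 CPM, both in siDGk libraries. ASNS had only 51, 28 and 24 counts in siCON and 63, 50 and 64 counts in siDGk. Its CPM were higher in all siDGk libraries than in siCON (2.72, 1.49 and 2.29 CPM in siCON and 3.40, 3.08 and 2.94 CPM in siDGk) without passing the test (0.54 ± 0.61 SE), and 49.3% of its exon bases overlap another gene in Gencode 44, so its counts are uncertain. FGF21 had 16, 0 and 8 counts in siCON and 3, 0 and 19 counts in siDGk, with a library at 0 in each group. The FGF21 libraries overlapped between groups.

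Summed over the 19 genes of the ATF4 arm, the level was 2696, 2977 and 2913 CPM in siCON and 3575, 3489 and 3577 CPM in siDGk. Every siDGk library was above every siCON library, with the mean 23.9% higher. GDF15 gave 30.1% of the sum in siCON and 32.7% in siDGk, so the sum follows a few abundant genes. Of the 19 genes, 2 were called, a share below the 14.1% of all genes. By the adjusted p 5 passed as higher, where 10.3% of all genes did, and 1 as lower, where 9.35% did. Without CHAC1 these were 1 of 18 called (5.56%), 4 higher and 1 lower. The 7 effectors had a median log2 fold change of 0.48 (0.45 without CHAC1), the 6 factors 0.09 and the 6 kinases and phosphatase subunits −0.07, beside 0.02 over all genes.

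**Figure D2:**
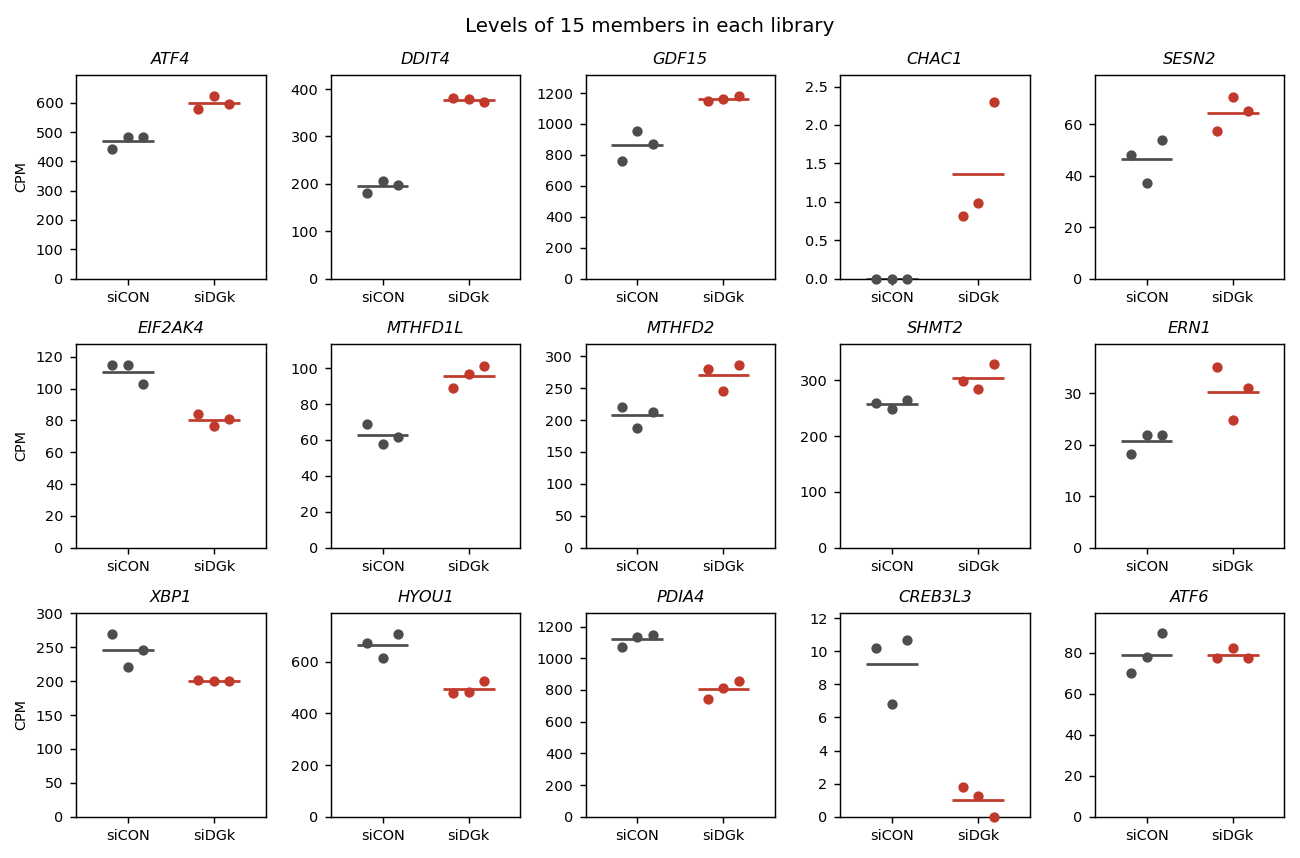
Each plot gives the level of 1 member in CPM (vertical axis from 0) in the 3 siCON and 3 siDGk libraries as points, with the group mean as a line. DDIT4 lies between 181 and 206 CPM in siCON and between 373 and 382 in siDGk, CHAC1 is at 0 in siCON, and ATF6 overlaps between groups.

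Stretches before RefSeq starts are shown because ATF4 acts through short elements near gene starts, whose core is TGATGNAA. By Gencode 44 bounds those of CHAC1, MTHFD1L and ERN1 lie within the genes, and those of DDIT4, XBP1 and HSPA5 do in part. RefSeq promoters (GRCh38.p14) were found for 31 of the 36 genes, in 44 entries, and the 250 bases before each start were searched on both strands. EIF2AK1, NUPR1, PSPH, SHMT2 and PYCR1 had no entry. The core was present in 3.14% of all promoters of this length (1104 of 35116), and in 8 of the 44 entries of the set, those of ASNS, CEBPG, CHAC1, FGF21, HERPUD1, MTHFD1L and PPP1R15B. Of these 7 genes 2 passed the adjusted p, CHAC1 and MTHFD1L, where 19.7% of all genes did. The filter had let CHAC1 in through siDGk alone. A match is a description of letters and not a site of binding. The promoter of CHAC1 (chr15:40953221-40953470 on the plus strand) holds the core on the opposite strand, 209 to 202 bases before the start, in capitals, and that of DDIT4 (chr10:72273674-72273923 on the plus strand) holds none in this stretch.
CHAC1: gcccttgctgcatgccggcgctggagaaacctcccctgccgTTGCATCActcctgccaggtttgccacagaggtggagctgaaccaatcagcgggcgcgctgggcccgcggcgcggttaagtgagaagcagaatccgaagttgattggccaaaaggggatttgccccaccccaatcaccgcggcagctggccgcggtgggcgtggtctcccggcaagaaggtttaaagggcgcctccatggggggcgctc
DDIT4: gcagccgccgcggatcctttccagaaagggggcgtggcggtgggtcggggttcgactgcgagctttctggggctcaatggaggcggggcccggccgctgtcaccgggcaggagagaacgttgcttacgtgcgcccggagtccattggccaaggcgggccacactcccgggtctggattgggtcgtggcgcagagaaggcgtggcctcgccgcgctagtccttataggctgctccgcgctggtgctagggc

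The serine-folate enzymes make serine from a glycolytic intermediate (PHGDH, PSAT1, PSPH), pass its carbon to folate in the cytosol (SHMT1, MTHFD1) or in mitochondria (SHMT2, MTHFD2, MTHFD1L) and, for PYCR1, make proline. MTHFD1L was called higher in siDGk, MTHFD2 and SHMT2, also higher, were past the adjusted p alone, and the other 6 did not pass. MTHFD1L, which releases formate from mitochondria, had 1293, 1080 and 647 counts in siCON and 1649, 1571 and 2199 counts in siDGk, or 69.1, 57.5 and 61.7 CPM in siCON and 89.1, 96.7 and 101 CPM in siDGk. The groups were apart, and MTHFD1L rose to 1.52 times the siCON level (log2 fold change 0.61 ± 0.11 SE, edgeR quasi-likelihood test, Benjamini-Hochberg adjusted p = 0.000649). It was called in all 6 fits with a library left out, at 0.55 to 0.69. The gene lies at chr6:150865679-151101887, plus strand (GRCh38, Gencode 44).

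MTHFD2, which oxidizes methylene-folate in mitochondria, had 220.4, 188 and 213 CPM in siCON and 279.7, 246 and 286 CPM in siDGk. SHMT2, which splits serine to glycine there, had 260.3, 249 and 264 CPM in siCON and 299, 286 and 329 CPM in siDGk. In both, the lowest siDGk library was above the highest siCON library. MTHFD2 passed the adjusted p alone (log2 fold change 0.39 ± 0.09 SE, edgeR quasi-likelihood test, Benjamini-Hochberg adjusted p = 0.00398), and kept that in the 6 fits with a library left out (adjusted p 0.00229 to 0.0299 by edgeR). SHMT2 was at the edge (log2 fold change 0.24 ± 0.08 SE, edgeR quasi-likelihood test, Benjamini-Hochberg adjusted p = 0.0411), and its adjusted p was 0.0947, 0.133 and 0.116 without siCON replicates 1, 2 and 3 and 0.0925 and 0.233 without siDGk replicates 1 and 3, by edgeR with the same adjustment. SHMT2 also missed the threshold with relative log expression factors (adjusted p = 0.0501) and without the count filter (0.0646), both by edgeR with Benjamini-Hochberg adjustment. MTHFD2 has 7 pseudogenes named after it and 14.1% of its exon bases overlap other genes, so its counts may lack reads.

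MTHFD1, the cytosolic trifunctional enzyme, had 83.9, 65.9 and 72.1 CPM in siCON and 58.9, 61.7 and 54.2 CPM in siDGk. Its siDGk libraries were all below the siCON libraries, and the difference missed the adjusted threshold (log2 fold change −0.35 ± 0.12 SE, edgeR quasi-likelihood test, Benjamini-Hochberg adjusted p = 0.0578). SHMT1, the cytosolic counterpart of SHMT2, overlapped between groups, between 25.4 and 33.4 CPM. The opposite signs of SHMT1 and SHMT2, or of MTHFD1 and MTHFD1L, were not tested as differences. PHGDH, the first enzyme of serine synthesis, had 179, 181 and 206 CPM in siCON and 157, 163 and 176 CPM in siDGk, and PYCR1, which makes proline, had 371, 377 and 398 CPM in siCON and 364, 348 and 347 CPM in siDGk. The siDGk libraries of PHGDH and PYCR1 lay below those of siCON by small steps that did not pass the test (adjusted p = 0.164 and 0.327 in edgeR's quasi-likelihood test with Benjamini-Hochberg adjustment). PSAT1 ran from 170.2 to 196 CPM and PSPH from 96.2 to 122 CPM, with overlap in both. PYCR1 counts are uncertain, as 29.7% of its exon bases overlap other genes.

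Of the 9 enzymes 1 was called (11.1%, next to 14.1% of all genes), and 3 passed the adjusted p (33.3%, next to 19.7%), all higher. Their summed level was 1489, 1441 and 1522 CPM in siCON and 1580, 1511 and 1631 CPM in siDGk, and these sums overlap between groups. The promoter of MTHFD1L (chr6:150866197-150866446 on the plus strand) is shown with the TGATGNAA core in capitals. It lies 90 to 83 bases before the start used for this entry, and another RefSeq entry of the gene holds the same copy.
MTHFD1L: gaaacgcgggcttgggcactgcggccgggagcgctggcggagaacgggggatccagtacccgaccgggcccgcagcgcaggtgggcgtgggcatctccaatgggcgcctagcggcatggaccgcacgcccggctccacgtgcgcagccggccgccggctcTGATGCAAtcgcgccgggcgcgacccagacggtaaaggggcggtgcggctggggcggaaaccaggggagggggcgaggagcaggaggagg

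In the ER arm, PDIA4, HYOU1, XBP1 and CREB3L3 had lower levels in siDGk, ERN1 had a higher one, and ATF6, HERPUD1 and SDF2L1 overlapped between groups. PDIA4, a disulfide isomerase of the ER, had 1073, 1133 and 1149 CPM in siCON and 741, 810.1 and 859 CPM in siDGk. HYOU1, a large ER chaperone, had 673, 616 and 707 CPM in siCON and 479.5, 484 and 525 CPM in siDGk. The siDGk libraries of both were below all siCON libraries. PDIA4 (log2 fold change −0.48 ± 0.07 SE, edgeR quasi-likelihood test, Benjamini-Hochberg adjusted p = 9.36e-05) and HYOU1 (−0.42 ± 0.08 SE, adjusted p = 0.000501 in that test) passed the adjusted p but not the fold threshold, with PDIA4 called at −0.51 without siCON replicate 1 and at −0.54 without siDGk replicate 3. Together they were the most abundant genes of the arm per exon length, at 339 and 97.4 CPM per kb in siCON.

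XBP1, whose mRNA is spliced by IRE1 to give the active factor, had 270.2, 221 and 247 CPM in siCON and 201, 200.4 and 201 CPM in siDGk. The siDGk libraries were nearly equal and below the lowest siCON library, and XBP1 passed the adjusted p alone (log2 fold change −0.29 ± 0.09 SE, edgeR quasi-likelihood test, Benjamini-Hochberg adjusted p = 0.0216). That p was 0.140 without siCON replicate 1, 0.0973 without siCON replicate 3 and 0.0591 without siDGk replicate 2, by edgeR with the same adjustment. The counts join spliced and unspliced XBP1 mRNA. ERN1 (IRE1), the sensor itself, had 340, 413 and 230 counts in siCON and 652, 402 and 677 counts in siDGk, or 18.2, 22 and 21.9 CPM in siCON and 35.2, 24.7 and 31.1 CPM in siDGk. Its groups did not overlap, though siDGk replicate 2 lay close to the siCON libraries, and ERN1 rose (log2 fold change 0.56 ± 0.19 SE, edgeR quasi-likelihood test, Benjamini-Hochberg adjusted p = 0.0436). The call was lost without siCON replicates 1, 2 and 3 (adjusted p = 0.152, 0.0621 and 0.0869) and without siDGk replicates 1 and 3 (0.225 and 0.1003), and in DESeq2 (adjusted p = 0.0680), so ERN1 is a borderline call. It lies at chr17:64039080-64130819, minus strand (GRCh38, Gencode 44).

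CREB3L3 (CREBH), a liver factor that is cleaved under ER stress and drives lipid and acute-phase genes, fell. It had 191, 128 and 112 counts in siCON and 33, 20 and 0 counts in siDGk, or 10.2, 6.82 and 10.7 CPM in siCON and 1.78, 1.23 and 0 CPM in siDGk. All siDGk libraries were below all siCON libraries, with siDGk replicate 3 at 0 (log2 fold change −3.21 ± 0.72 SE, edgeR quasi-likelihood test, Benjamini-Hochberg adjusted p = 0.00347). The call held in the 6 fits with a library left out (−3.99 to −2.61), but not in DESeq2 (log2 fold change −3.21, Wald test, Benjamini-Hochberg adjusted p = 0.0994). Over all 13 alternatives the log2 fold change of CREB3L3 ran from −3.99 to −0.35, so its size depends on the method. CREB3L3 lies at chr19:4153631-4173054, plus strand (GRCh38, Gencode 44). ATF6, the remaining sensor, had 70.1, 77.8 and 89.5 CPM in siCON and 77.3, 82.3 and 77.2 CPM in siDGk. Its groups overlapped fully, with a log2 fold change of −0.0007 ± 0.11 SE. HERPUD1, of ER-associated degradation, and SDF2L1, a cochaperone, also overlapped, from 146 to 159.9 CPM and from 36.4 to 58.7 CPM.

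Of the 8 genes of the ER arm, 2 were called, 1 in each direction, where 14.1% of all genes were called. By the adjusted p 4 passed as lower, where 9.35% of all genes did, and 1 as higher, where 10.3% did. The summed level was 2310, 2275 and 2418 CPM in siCON and 1734, 1793 and 1909 CPM in siDGk. The mean sum changed by −22.4% from siCON, with every siDGk library below every siCON library, and PDIA4 gave 47.9% of it in siCON. In these bulk libraries, fewer cells that express a gene and less RNA of it per cell cannot be told apart.

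Elements bound in the unfolded protein response were searched in the same stretches. The ER stress response element, CCAAT and CCACG with 9 bases between them, was in 0.074% of all promoters (26 of 35116) and, among the 36 genes, in that of XBP1. The UPR element, TGACGTGG, was in 0.612% (215 of 35116) and, among the 36, in that of HYOU1. XBP1 (chr22:28800570-28800661 on the minus strand) and HYOU1 (chr11:119057346-119057433 on the minus strand) are shown with the element in capitals, beside HSPA5 (chr9:125241351-125241449 on the minus strand), which encodes the main ER chaperone BiP. XBP1, HYOU1 and HSPA5 each had a lower level in siDGk. The promoters of ERN1 (chr17:64130145-64130394 on the minus strand) and CREB3L3 (chr19:4153381-4153630 on the plus strand), the called genes of the arm, held none of the 3 motifs in this stretch.
XBP1: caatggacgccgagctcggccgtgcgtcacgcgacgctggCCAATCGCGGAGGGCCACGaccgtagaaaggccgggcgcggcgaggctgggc
HYOU1: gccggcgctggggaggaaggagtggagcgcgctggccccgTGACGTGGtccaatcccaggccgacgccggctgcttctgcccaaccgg
HSPA5: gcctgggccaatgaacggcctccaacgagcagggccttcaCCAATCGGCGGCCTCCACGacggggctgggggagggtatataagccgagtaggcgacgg
ERN1: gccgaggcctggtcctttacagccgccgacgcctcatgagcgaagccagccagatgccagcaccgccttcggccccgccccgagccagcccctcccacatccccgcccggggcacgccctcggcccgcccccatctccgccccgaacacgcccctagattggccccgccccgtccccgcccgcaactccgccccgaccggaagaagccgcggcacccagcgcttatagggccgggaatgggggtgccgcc
CREB3L3: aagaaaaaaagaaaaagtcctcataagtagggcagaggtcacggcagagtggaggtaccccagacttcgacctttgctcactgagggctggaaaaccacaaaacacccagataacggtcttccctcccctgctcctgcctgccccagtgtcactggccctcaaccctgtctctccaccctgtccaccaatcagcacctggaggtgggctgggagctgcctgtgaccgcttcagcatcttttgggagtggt

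**Figure D3:**
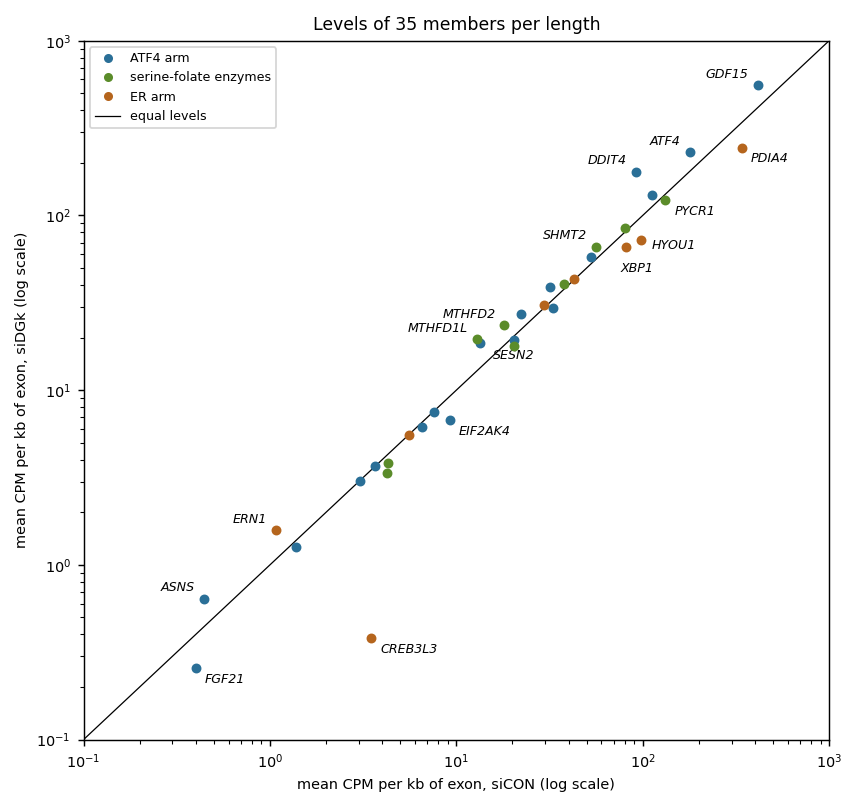
The plot sets the mean level of 35 members in siDGk (vertical axis) against that in siCON (horizontal axis), both in CPM per kb of exon on log scales, with colours for the 3 arms and a line of equal levels. GDF15 and PDIA4 are highest in siCON, at 413 and 339 CPM per kb, and CREB3L3, at 3.49 in siCON and 0.379 in siDGk, stands farthest from the line. CHAC1, at 0 in siCON, has no place on a log axis.

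Other genes of the same pathways were counted from lists chosen by function. These lists were also drawn up with earlier results of these data known, so their shares are descriptive. Of 32 further ATF4 targets tested, 7 were called higher (21.9%, next to 7.42% of all genes) and 1 lower (3.12%, next to 6.68%), and the median log2 fold change was 0.23. The cystine transporter SLC7A11 rose most, at 24.9 to 35.9 CPM in siCON and 68.8 to 83.4 CPM in siDGk (log2 fold change 1.30 ± 0.15 SE, edgeR quasi-likelihood test, Benjamini-Hochberg adjusted p = 3.54e-06). EIF4EBP1, a brake on translation initiation (0.74 ± 0.13 SE), the lipoprotein receptor VLDLR (0.66 ± 0.18 SE) and SLC3A2, the partner chain of SLC7A11 (0.64 ± 0.08 SE), also rose. ATF3, a stress factor, was at 39.5 to 45.4 CPM in siCON and 60.4 to 73.9 in siDGk and rose (log2 fold change 0.59 ± 0.13 SE, edgeR quasi-likelihood test, Benjamini-Hochberg adjusted p = 0.00343), and was under the fold threshold at 0.49 without siDGk replicate 2. ALDH18A1, of proline synthesis, fell (−0.59 ± 0.09 SE). The VLDLR call was lost without siCON replicate 1 or 3 or siDGk replicate 1, at adjusted p of 0.0773, 0.0596 and 0.0763 by edgeR.

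Of 32 further ER genes tested, 4 were called lower and 1 higher, with a median of −0.11. The share called, 15.6%, was near the 14.1% of all genes. The abundant chaperones HSP90B1 (−0.76 ± 0.07 SE), PDIA3 (−0.71 ± 0.07 SE) and CALR (−0.69 ± 0.07 SE) fell, as did the protease MBTPS2 that cleaves ATF6 (−0.52 ± 0.17 SE), whereas the cochaperone DNAJB11 rose (0.56 ± 0.11 SE). HSPA5 had 2577, 2509 and 2603 CPM in siCON and 1887, 1900 and 2122 CPM in siDGk. It was lower in 3 of 3 siDGk libraries and passed the adjusted p alone (log2 fold change −0.38 ± 0.07 SE, edgeR quasi-likelihood test, Benjamini-Hochberg adjusted p = 0.000435). The MBTPS2 call was lost without any 1 library except siDGk replicate 2 (adjusted p 0.0391 to 0.137 over the 6 fits by edgeR), and DNAJB11 was below the fold threshold at 0.42 without siCON replicate 2.

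Of 25 further genes of folate and glycine metabolism tested, 4 were called higher, where 7.42% of all genes were, and 4 lower, where 6.68% were, with a median of −0.11. GGH, which trims folate polyglutamates (1.04 ± 0.10 SE), SFXN1, the mitochondrial serine carrier (0.75 ± 0.12 SE), SLC25A32, the mitochondrial folate carrier (0.65 ± 0.17 SE), and FPGS, which adds glutamates (0.50 ± 0.12 SE), rose. Among those called lower, SARDH (−1.34 ± 0.16 SE), FTCD (−1.14 ± 0.15 SE) and the folate importer SLC46A1 (−1.14 ± 0.14 SE) fell. Counts of SLC25A32 and SLC46A1 are uncertain, since 80.8% and 60.6% of their exon bases overlap other genes. FPGS was just over the fold threshold and under it in several fits, at 0.47, 0.44, 0.49 and 0.46 without siCON replicates 1 and 3 and siDGk replicates 1 and 2.

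Of 21 genes of the eIF2 machinery, 1 was called (4.76%, next to 14.1% of all genes), the phosphatase subunit PPP1CB (log2 fold change 0.56 ± 0.08 SE, edgeR quasi-likelihood test, Benjamini-Hochberg adjusted p = 4.97e-05), which acts with PPP1R15A. Of 16 chaperones and proteases of the mitochondrial stress response, 0 were called by edgeR and 0 by DESeq2, with 4 at an unadjusted p under 0.05 in either. The pair past edgeR's adjusted p, named after their values were seen, were the mitochondrial chaperones HSPD1 (−0.26 ± 0.07 SE) and HSPE1 (0.29 ± 0.10 SE), in opposite directions. HSPD1 has 18 pseudogenes named after it and HSPE1 has 26, so the counts of both are uncertain.

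**Figure D4:**
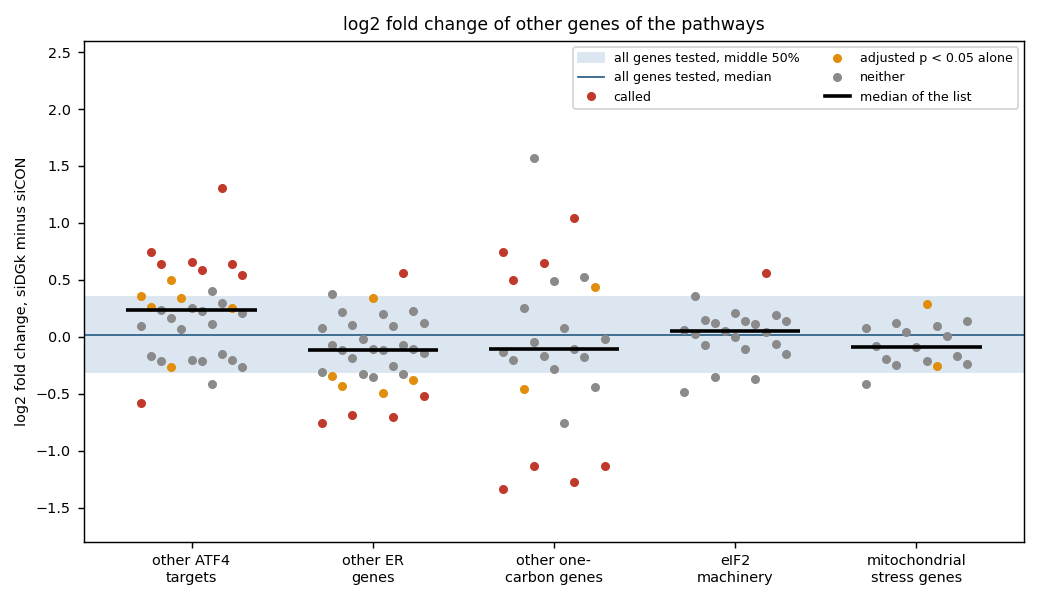
Points are the log2 fold changes (siDGk minus siCON, vertical axis) of genes in 5 lists of related genes, coloured by call, with the list median as a black bar and the median and middle 50% of all genes tested as a line and a band. The ATF4 targets have a median of 0.23 and the ER genes one of −0.11, both inside the band of all genes.

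Markers of the labelled and of other cell types were read beside these results. Of 15 hepatocyte transcripts 12 fell, where 6.68% of all genes were called lower, and all 15 were detected in every library. Their summed level was 69248, 64748 and 62580 CPM in siCON and 38247, 34320 and 32496 CPM in siDGk, and ALB, the most abundant, fell (log2 fold change −1.58 ± 0.15 SE, edgeR quasi-likelihood test, Benjamini-Hochberg adjusted p = 4.74e-05). Of 8 fibroblast and stellate transcripts, 4 were tested by edgeR with 2 called, and DESeq2 called 4. COL1A1 was called higher by edgeR (9, 37 and 11 counts in siCON and 374, 336 and 379 counts in siDGk) and PDGFRB lower. COL1A2 had 14, 0 and 0 counts in siCON and 124, 169 and 0 counts in siDGk, and COL3A1 had 0, 1 and 0 counts in siCON and 148, 254 and 9 counts in siDGk. THY1 was at 0 in all 6 libraries, and DCN and LUM were at 0 in the 3 siCON libraries. ACTA2 was the most abundant of these, and the list summed to 44.2, 41.6 and 36.5 CPM in siCON and 70.1, 77.4 and 47.5 CPM in siDGk. Of the 5 endothelial transcripts 3 were tested, with 0 called by edgeR and 1 by DESeq2, and 2 and 1 at an unadjusted p under 0.05. They summed to 1.66, 1.39 and 2.29 CPM in siCON and 4.48, 59.3 and 4.05 CPM in siDGk, with KDR and TEK at 0 in siCON and VWF at 0 in siCON replicate 3 and siDGk replicate 3. Of the 7 leukocyte transcripts that the table holds, 0 were called by edgeR and 0 by DESeq2, and 1 and 2 had an unadjusted p under 0.05. They summed to 1615, 1710 and 1709 CPM in siCON and 1913, 1768 and 1777 CPM in siDGk, of which LYZ gave 99.4% in siCON. On the second principal component of log CPM, siDGk replicates 2 and 3 stood far apart, at −61.4 and 63.7, with siDGk replicate 1 at −11.9 and siCON between 1.62 and 4.37. Without siDGk replicate 2, 5 of the 36 genes were called, 5 of them the same, and DDIT4 was at 0.95, MTHFD1L at 0.60 and PDIA4 at −0.48. Without siDGk replicate 3, 4 were called, 3 of them the same, with these genes at 0.95, 0.56 and −0.54. The part that these marker transcripts have in the results was not tested.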

How the data were processed

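Counts of reads per gene, as the authors deposited them for 6 libraries of poly(A) RNA, were used without change. The authors aligned paired-end reads to GRCh38 with STAR 2.6.1, removed low-complexity reads, and counted with featureCounts 1.6.5 at default parameters, requiring a Phred quality above 10, where strand is not used and multi-mapping or ambiguous reads are dropped. Genes that overlap others, or have near copies, may therefore be undercounted. The extract protocol leaves the kit and its strandedness unsettled.

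Counts were analysed in R 4.3.3 with edgeR 4.0.16 (filterByExpr with a minimum count of 10, TMM, robust quasi-likelihood fit of condition alone), and p-values were adjusted over all 14476 genes tested. The SE is the absolute log2 fold change over the square root of F. Exon lengths and overlaps came from Gencode 44, whereas the authors counted on an earlier release, in which some overlapping genes may be absent. Counting error, including the floor of 3 counts, does not cover differences between cultures. Replicates of a group differed by more than sampling noise. Same-numbered siCON and siDGk libraries were not paired (the check is given with the alternatives). The fits were also run on simulated counts in which only genes with higher counts were changed. That run does not bear on calls at few counts, such as that of CHAC1. Alternatives were DESeq2 1.42.0, other scalings, no filter, a replicate block and leaving out each library. Library sizes reset after the filter, and list counts without CHAC1, were added after seeing the data.

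Members and gene lists were chosen with earlier results of these data known. The genes named are DGUOK, the 36 members, HSPA5, ATF3, up to 4 called genes per direction of each list of related genes, and the most abundant gene of each marker list, apart from genes that are not reported here. COL1A1, COL1A2, COL3A1, PDGFRB and the markers at 0 were named after their values were seen. DERL3 and MS4A1 were not analysed here.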

Additional observations from a re-analysis of the deposited data

How the results depend on the processing

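Relative log expression or upper-quartile scaling, no count filter and library sizes reset after the filter (chosen after seeing the data) left the same 5 of 36 members called. DESeq2 called 3 members and, with shrunken fold changes, 2. Of the 24670 genes with a count, to which the filter was not applied, these fits called 2151 and 1859. In the ATF4 arm the shrunken fit called 1 of 19, since CHAC1 shrank to 0.49. In the ER arm both DESeq2 fits called 0 of 8, although 3 genes passed its adjusted p and 5 an unadjusted p under 0.05. By edgeR's adjusted p alone, with no fold threshold, 14 of 36 members passed, next to 19.7% of all genes. These were 6 of 19 in the ATF4 arm, 3 of 9 serine-folate enzymes and 5 of 8 in the ER arm. So did 14 of 32 further ATF4 targets, 10 of 32 further ER genes and 10 of 25 further folate genes. Among the eIF2 machinery 1 of 21 passed, and among mitochondrial stress genes 2 of 16.

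With the replicate block, a paired fit, 3 of 36 members were called, 1 in the ATF4 arm and 1 in the ER arm, without CHAC1 and ERN1. The labels give only shared numbers: the correlation between same-numbered libraries across genes, after removal of group means, was 0.0240, 0.0166 and −0.00224.

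Leaving out a library gave 1704 to 1935 calls over all genes, 4 to 5 among the members (3 of the 5 shared in 5 fits, and 5 without siDGk replicate 2), 1 to 3 in the ATF4 arm, 1 to 2 in the ER arm and 6 to 9 among further folate genes. Of 767 fits of 59 genes (DGUOK, the members, the related genes of the naming rule, HSPA5, ATF3, ALB and COL1A1; no other gene was tallied), 706 kept direction and call, 36 lost a call, 7 gained one and 18 had the opposite sign, none of these in a called gene. The sign changes were in genes near no change, with a library left out at log2 fold changes of −0.13 to 0.048 for EIF2AK2, −0.088 to 0.15 for PPP1R15B, −0.20 to 0.18 for ATF5, −0.21 to 0.037 for CEBPG, −0.08 to 0.096 for ATF6 and −0.22 to 0.15 for SDF2L1. Without the filter EIF2AK2 was at 0.0003 and ATF6 at 0.0054. With the block ATF6 was at 0.0043 and SDF2L1 at −0.0013, and SDF2L1 was at −0.0003 with library sizes reset. The cause of these changes was not tested. CHAC1, FGF21, ASNS and CREB3L3 each had a library with under 30 counts, where counting error is large.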
